A study of Caenorhabditis elegans with 16 samples.

Results

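The strands described here are miR-70-3p (listed as cel-mir-70-3p), miR-77-3p (cel-mir-77-3p), miR-78-3p (cel-mir-78-3p), miR-85-3p (cel-mir-85-3p) and miR-230-3p (cel-mir-230-3p), 5 of the 366 miRNA strands listed in small RNA libraries of Caenorhabditis elegans embryos and 5 of the 354 strands that lie outside the miR-51 family. They were chosen from their levels in the same libraries, because some of these levels were higher in mutants of the miR-51 family than in wild type. Their levels against wild type are therefore given as a description. Where the fit across all strands is quoted for them, its calls are likewise counted as a description and support nothing. Of the 5, only miR-70-3p and miR-78-3p were above wild type in every mutant library. miR-77-3p and miR-85-3p were each above both wild-type libraries in 3 strains and below both in 1. The place below rests on 1 and 2 UMIs for miR-77-3p, and on 0 and 2 for miR-85-3p. In the miR-54 strain, 1 of the 3 above for miR-85-3p, replicate 2 held 6 UMIs. miR-230-3p had too few molecules for most strains to be placed.

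Each library was made from 50 whole embryos at the comma stage, which is about midway through embryogenesis, and 2 libraries were made for each of 8 strains, 16 in all. In the miR-51null strain the chromosome IV genes of the family (nDf67 and n4100) and the miR-54 cluster on the X chromosome (nDf58) are deleted. This strain is kept with an extrachromosomal array that carries the miR-54 cluster, and the sources used here do not say whether the collected embryos had lost it. The miR-54 strain has the chromosome IV deletions and keeps mir-54 as the sole family gene, the miR-54+55 strain keeps mir-54 and mir-55, and the miR-54C strain keeps the whole cluster with mir-56. The miR-54 strain is described as slow growing. In the miR-52to51, miR52to53 and miR52to57seed strains the cluster and the nDf67 genes are deleted, and the mir-52 hairpin is replaced at its own place by the hairpin of mir-51, of mir-53, or of mir-57 carrying the seed of the family. N2 is the wild type. No strain received a treatment, and all libraries carry the same batch label. The barcode in the adapter differed between strains and not within them, and its part in a difference between strains cannot be told apart from that of the genotype.

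A miRNA is cut from a hairpin in a longer transcript, and 1 of its arms is loaded into an Argonaute protein, where bases 2 to 8, the seed, pair with target mRNAs. The suffixes -5p and -3p name the arm of the hairpin. The miR-51 family is among the most abundant miRNA families of the C. elegans embryo and is needed for its morphogenesis. The members described here belong to other families. For miR-85 a role is known in recovery from heat shock, where it limits the mRNA of the chaperone hsp-70, and for the other members no role is stated here.

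Molecules were counted by unique molecular identifiers (UMIs), random bases that tag each ligated molecule, and levels are given in CPM, the number of UMIs of a strand per 1000000 UMIs on strands outside the miR-51 family, after scaling for composition. The family was left out of this scale because the strains differ in it by design, so that a level is relative to the other miRNAs of the same library. Libraries held between 18481 and 844718 UMIs, with a median of 103072, and the 3 libraries under 50000 UMIs were replicate 2 of miR-54+55 and replicate 1 each of miR52to53 and miR52to57seed. A count of 3 UMIs, taken here as the smallest that is read as a level, stood for between 5.09 CPM in N2 replicate 1 and 170.3 in miR52to53 replicate 1. In the miR-51null libraries the family guide strands were at 0.388% to 10.1% of their N2 level.

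The members come from different places in the genome (WBcel235 assembly, annotation of Ensembl release 115). mir-70 (WBGene00003298) lies on chromosome V from 6665536 to 6665635, on the minus strand, within an intron of pmp-5, a protein-coding gene on the same strand, and its 3p strand spans 6665552 to 6665574. mir-77 (WBGene00003305) lies on chromosome II from 12519268 to 12519367, on the plus strand, between genes and 408 bases from srh-70, with its 3p strand from 12519329 to 12519350. mir-85 (WBGene00003313) lies on the same chromosome and strand from 8393553 to 8393658, within an intron of F49E12.8 and over an exon of the noncoding RNA gene F49E12.14, both annotated on the opposite strand, and its 3p strand spans 8393617 to 8393640. The mir-77 and mir-85 hairpins are 4125609 bases apart. mir-230 (WBGene00003323) lies on the X chromosome from 5803892 to 5803989, on the plus strand, 389 bases from F13D11.3, with its 3p strand from 5803952 to 5803974. Within 10 kb it has mir-791 as a neighbour, 5359 bases away on the same strand, while no other annotated miRNA gene lies within 10 kb of the other 4 hairpins.

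The mir-78 hairpin (WBGene00003306) spans 15165647 to 15165742 on chromosome IV, plus strand, with miR-78-3p from 15165707 to 15165727. On the same strand the annotation places 2 piRNAs, small RNAs of the germline, over it. 21ur-9780 spans 15165706 to 15165726 and shares 20 of its 21 bases with miR-78-3p, and 21ur-10414 spans 15165704 to 15165724 and shares 18 of 21. No 5p strand of mir-78 is listed in any library. How many of the molecules counted as miR-78-3p end as the piRNAs do was not tested, since the tables count strands and not read ends.

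All UMIs of the members were assigned to them in full, so that none was divided with another strand. Over the 16 libraries miR-70-3p had 1200 UMIs and miR-77-3p 1082, while miR-85-3p had 346, miR-78-3p 270 and miR-230-3p 47, with 1.13 to 1.20 reads per UMI. miR-70-3p, miR-77-3p and miR-78-3p had UMIs in all 16 libraries, miR-85-3p in 14 and miR-230-3p in 11. All 5 passed the filter of the fit, at least 10 UMIs in at least 2 libraries (162 strands passed in all). miR-230-3p passed it only through miR-54 replicate 1 and miR-52to51 replicate 2, the libraries in which it was highest, so that passing the filter was itself tied to a high level.

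miR-70-3p was low in wild type and above it in every mutant library. In the deletion strains it was at 538.6 and 887.2 CPM in miR-51null, 1990 and 739.9 in miR-54, 815.8 and 1133 in miR-54+55, and 279.1 and 462.8 in miR-54C, against 98.4 and 98.3 in N2. In the replacement strains it was at 867.1 and 1088 CPM in miR-52to51, 1078 and 409.9 in miR52to53, and 149.7 and 527.7 in miR52to57seed. The lowest mutant library, miR52to57seed replicate 1, rests on 7 UMIs, and the N2 values rest on 58 and 14 UMIs, with counting intervals of 74.7 to 127 and 53.8 to 165 (95%, exact Poisson, counting error only).

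Relative to the N2 mean, miR-70-3p was at 7.25 ± 2.51 in miR-51null, 13.9 ± 8.98 in miR-54, 9.90 ± 2.28 in miR-54+55 and 3.77 ± 1.32 in miR-54C (ratio ± SD, n = 2 libraries each). The ratios were 9.94 ± 1.59 in miR-52to51, 7.56 ± 4.81 in miR52to53 and 3.44 ± 2.72 in miR52to57seed. Here and below, the SD of a ratio combines the relative SDs of the strain and of N2, as the root of their summed squares. For miR-70-3p the N2 SD was 0.04 CPM, so that the counting error of N2 is not in these values. In the order of the means, miR-54, miR-52to51, miR-54+55, miR52to53 and miR-51null each overlapped with the next. Both libraries of miR-51null lay above those of miR-54C, miR-54C and miR52to57seed overlapped, and both lay above N2. Among the deletion strains the mean was thus lowest in miR-54C. The mean of miR-51null lay below those of miR-54 and miR-54+55, and its libraries overlapped with theirs. A relation to the family genes that a strain keeps was not tested. miR-70-3p ranked between 45 and 92 among strands outside the family in the mutant libraries, and 108 and 109 in N2. The plot of levels by library shows these values.

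**Figure D1:**
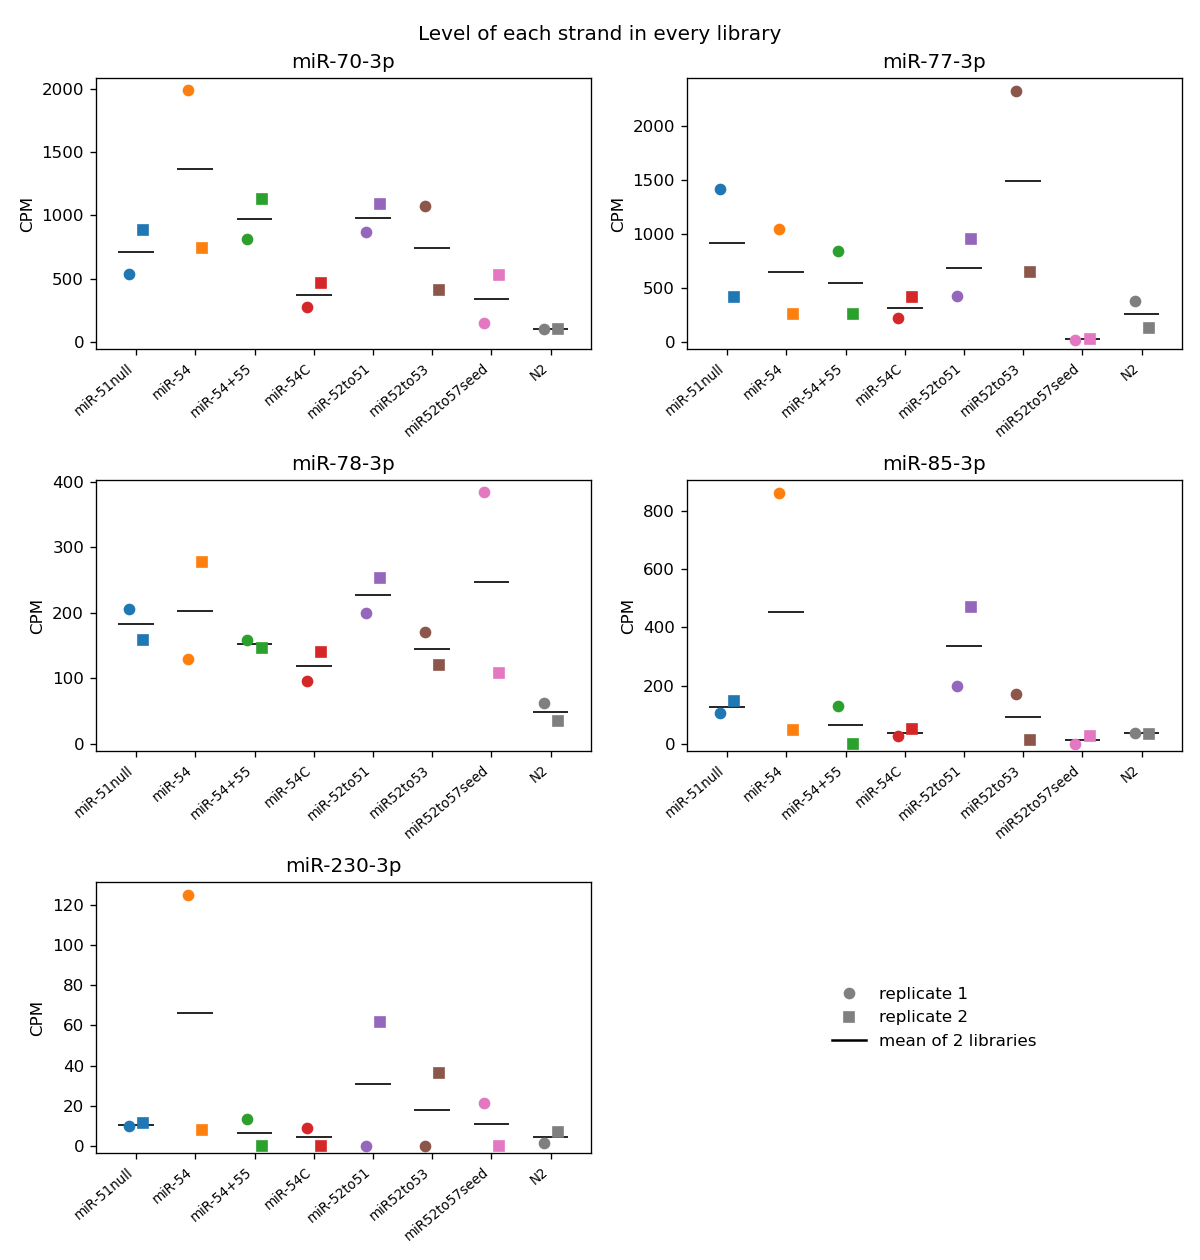
Level of each of the 5 strands (y axes, CPM, linear, a separate axis for each strand) in the 2 libraries of each strain (x axis), with circles for replicate 1, squares for replicate 2 and bars for the mean. miR-70-3p lies at 98.4 and 98.3 in N2 and between 149.7 and 1990 in the 14 mutant libraries, and miR-77-3p lies at 21.4 and 27.1 in miR52to57seed, below both N2 libraries.

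miR-78-3p was the only other member above both N2 libraries in all 14 mutant libraries. Its level was lower than that of miR-70-3p in every mutant library except miR52to57seed replicate 1. It was at 205.6 and 159.2 CPM in miR-51null, 129.8 and 277.5 in miR-54, 157.9 and 146.1 in miR-54+55, and 95.9 and 140.9 in miR-54C, against 62.8 and 35.1 in N2. It was at 200.1 and 253.4 CPM in miR-52to51, 170.3 and 120.5 in miR52to53, and 384.9 and 108.3 in miR52to57seed. These values rest on 3 to 41 UMIs in mutants, and on 37 and 5 in N2, so that counting error alone is wide.

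The ratio of miR-78-3p to the N2 mean ran between 2.42 ± 1.16 in miR-54C and 5.04 ± 4.47 in miR52to57seed (SD, n = 2), and was 3.73 ± 1.63 in miR-51null. In contrast to miR-70-3p, its highest mean was in miR52to57seed, where replicates were 3.56-fold apart. miR52to57seed, miR-52to51, miR-54 and miR-51null each overlapped with the next, as did miR-54+55, miR52to53 and miR-54C below them. miR-78-3p ranked between 67 and 110 in mutant libraries, and 124 and 140 in N2. Of all 162 tested strands, 3 were above both N2 libraries in all 14 mutant libraries (1.85%), and these were miR-70-3p, miR-78-3p and miR-61-5p.

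miR-77-3p differed in direction between strains. It was at 1420 and 420.8 CPM in miR-51null, 1043 and 254.3 in miR-54, 842.1 and 255.7 in miR-54+55, and 218 and 412.5 in miR-54C, against 378.3 and 133.5 in N2. It was at 422.4 and 951.7 CPM in miR-52to51, 2327 and 650.9 in miR52to53, and 21.4 and 27.1 in miR52to57seed. Both libraries of miR-51null, miR-52to51 and miR52to53 were above both N2 libraries, those of miR-54, miR-54+55 and miR-54C overlapped with N2, and those of miR52to57seed were below it.

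The N2 libraries were themselves 2.83-fold apart for miR-77-3p, with 223 and 19 UMIs, while they were nearly equal for miR-70-3p. The ratio to the N2 mean was 5.82 ± 6.08 in miR52to53, 3.60 ± 3.68 in miR-51null and 2.68 ± 2.33 in miR-52to51 (SD, n = 2). In miR52to57seed it was 0.0947 ± 0.0659, from 1 and 2 UMIs. With the libraries of each strain pooled, that ratio was 0.0752, with a counting interval of 0.0154 to 0.222 (95%, exact). The interval covers counting error only, not the spread between the N2 libraries, and is no test. In the order of means, all strains from miR52to53 down to N2 overlapped with their next neighbour, and miR52to57seed alone stood apart below N2.

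miR-85-3p was above both N2 libraries in 3 strains and had few UMIs in most others. It was at 107.7 and 147.9 CPM in miR-51null, 860.3 and 46.2 in miR-54, 131.6 and 0 in miR-54+55, and 26.2 and 50.3 in miR-54C, against 39.0 and 35.1 in N2. It was at 200.1 and 469.7 CPM in miR-52to51, 170.3 and 12.1 in miR52to53, and 0 and 27.1 in miR52to57seed. Both libraries of miR-51null, miR-54 and miR-52to51 were above both N2 libraries, and those of miR-54+55, miR-54C and miR52to53 overlapped with N2. In miR52to57seed both values were below those of N2, from 0 and 2 UMIs.

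The ratio of miR-85-3p to the N2 mean was 3.45 ± 0.808 in miR-51null, 9.03 ± 5.19 in miR-52to51 and 12.2 ± 15.6 in miR-54 (SD, n = 2). The miR-54 mean was carried by replicate 1, with 179 UMIs against 6 in replicate 2, an 18.6-fold gap. Without that library the fitted log2 fold change in miR-54 was 0.25, against 3.59 with it. In miR52to57seed the 2 UMIs of both libraries gave a pooled ratio of 0.433 with a counting interval of 0.05 to 1.72, so that a difference from N2 was not detectable at this depth. The count of 0 in replicate 1 of that strain allows up to 64.1 CPM, above both N2 values, and the 0 in miR-54+55 replicate 2 up to 109.6.

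miR-230-3p was close to the limit of detection in most libraries. It was at 9.79 and 11.4 CPM in miR-51null, 125 and 7.71 in miR-54, 13.2 and 0 in miR-54+55, and 8.72 and 0 in miR-54C, against 1.70 and 7.02 in N2. It was at 0 and 61.8 CPM in miR-52to51, 0 and 36.2 in miR52to53, and 21.4 and 0 in miR52to57seed. All these values rest on 3 UMIs or fewer, except 26 UMIs in miR-54 replicate 1 and 10 in miR-52to51 replicate 2.

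With the libraries of a strain pooled, the ratio of miR-230-3p to N2 was 29.2 in miR-54, with a counting interval of 7.35 to 254, and 17.7 in miR-52to51, with an interval of 3.77 to 166 (95%, exact, counting error only, against 2 UMIs in N2). Each of these values was carried by 1 library, the same through which the strand passed the filter, and nothing is read from the intervals. The ratio was 10.9 in miR52to53, from 3 UMIs, and those of the other 4 strains rest on 1 or 2 UMIs each. In the order of means, each strain overlapped with its next neighbour. miR-54 replicates were 16.2-fold apart, and the high library was the same in which miR-85-3p was high.

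All strands were fitted together over the 16 libraries in edgeR (quasi-likelihood), and a strand was called at an adjusted p under 0.05 over the 162 strands (Benjamini and Hochberg). The 7 comparisons share the 2 N2 libraries. Over all strands and strains, 20 of 1134 pairs were called higher (1.76%), and 12 of these were members, out of 35 pairs of a member and a strain. Since the members were chosen from these contrasts, nothing is read from this count. miR-70-3p was called higher in 5 of 7 strains, miR-78-3p in 4, miR-85-3p in 2, miR-230-3p in 1 and miR-77-3p in 0, and 0 members were called lower. DESeq2 called 14 pairs higher in place of 12, among them miR-70-3p in 7 of 7 strains and miR-230-3p in 0, and called 1 pair lower, miR-77-3p in miR52to57seed. At an unadjusted p under 0.05 in edgeR, 18 pairs were higher and 1 was lower. The 12 calls fell to 2 without N2 replicate 1, to 4 without N2 replicate 2 and to 6 without miR52to53 replicate 2.

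By strain, 2 of 5 members were called higher in miR-51null, where 1.85% of all strands were, 4 in miR-54 (3.7% of all), 1 in miR-54+55 (0.617%) and 0 in miR-54C (0%, with 1 member at an unadjusted p under 0.05 and 1, miR-70-3p, called by DESeq2). In the replacement strains 3 were called higher in miR-52to51 (3.7% of all), 1 in miR52to53 (1.85%) and 1 in miR52to57seed (0.617%). Both libraries were above both N2 libraries for all 5 members in miR-51null, where this held for 19.1% of all strands, 4 in miR-54 (23.5%), 2 in miR-54+55 (18.5%), 2 in miR-54C (17.3%), 4 in miR-52to51 (21%), 3 in miR52to53 (24.1%) and 2 in miR52to57seed (21%). The strands called in either direction were 13% of all in miR-51null, 11.1% in miR-54, 5.56% in miR-54+55, 3.7% in miR-54C, 13.6% in miR-52to51, 8.64% in miR52to53 and 8.02% in miR52to57seed, or 9.08% of all pairs. Both libraries below both N2 libraries were found for 2 members, miR-77-3p and miR-85-3p, in miR52to57seed, where this held for 38.9% of all strands, and for miR-85-3p it rests on 0 and 2 UMIs. For miR-230-3p the place above N2 rests on 1 UMI in each miR-51null library, and on 1 UMI in miR-54 replicate 2. Each N2 library also held 1 UMI of it, and all these counts are under the 3 UMIs read as a level. With these pairs of miR-230-3p included, the members were above both N2 libraries in 22 of 35 pairs, beside 20.6% of the pairs over all strands.

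The fitted log2 fold changes of miR-70-3p were 2.84 (SE 0.59) in miR-51null, 3.79 (SE 0.59) in miR-54, 3.27 (SE 0.61) in miR-54+55 and 1.90 (SE 0.59) in miR-54C. In the replacement strains they were 3.31 (SE 0.59) in miR-52to51, 2.74 (SE 0.63) in miR52to53 and 1.84 (SE 0.62) in miR52to57seed. Those of miR-78-3p ran between 1.14 (SE 0.58) in miR-54C and 2.12 in miR-52to51 and miR52to57seed (SE 0.55 and 0.58). The median over all strands lay between -0.12 and -0.01 in the 7 strains. For miR-77-3p the fold change was 2.34 (SE 0.81) in miR52to53, 0.23 (SE 0.78) in miR-54C and -3.38 (SE 1.26) in miR52to57seed, and without miR-54 replicate 1 its value of 1.29 (SE 0.75) in miR-54 became -0.12. For miR-85-3p it was 3.59 (SE 0.98) in miR-54, 3.21 in miR-52to51, -0.00 (SE 1.13) in miR-54C and -1.16 (SE 1.79) in miR52to57seed. For miR-230-3p standard errors were 1.21 or more. The plot of fold changes by strain shows shorter error bars for miR-70-3p and miR-78-3p than for miR-85-3p and miR-230-3p in every strain.

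**Figure D2:**
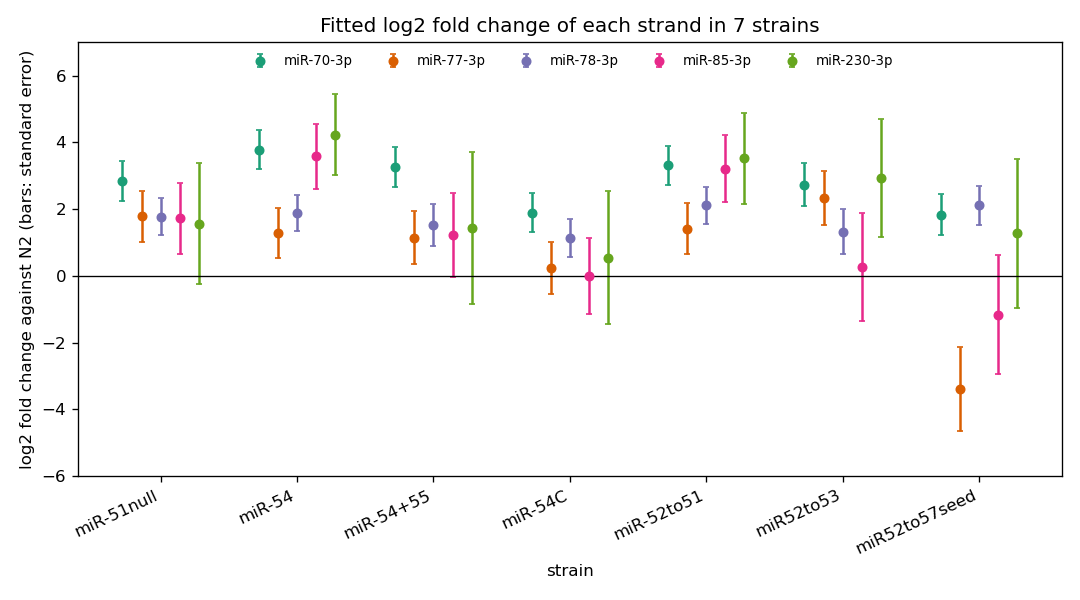
Fitted log2 fold change against N2 (y axis) of the 5 strands in the 7 strains (x axis), with bars for the standard error and a line at 0. miR-70-3p and miR-78-3p lie above 0 in every strain, between 1.14 and 3.79, while miR-77-3p lies at -3.38 in miR52to57seed.

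The other arm of the hairpins was too rare for the fit. miR-70-5p had 27 UMIs over all libraries, or 2.20% of both arms of mir-70 (95% exact interval 1.46% to 3.19%). miR-77-5p had 61 UMIs, or 5.34% (4.11% to 6.80%), and its share was 8.95% in miR-52to51 and 6.67% in miR-51null, against 2.81% in N2, with intervals of 5.30% to 13.9%, 3.60% to 11.1% and 1.14% to 5.71%. In the other strains the share lay between 3.06% in miR52to53 and 5.71% in miR-54C, apart from 40% in miR52to57seed, from 2 UMIs. miR-230-5p had 2 UMIs, and for mir-78 and mir-85 no 5p strand was listed. In CPM, miR-77-5p was at 49.0 and 91.0 in miR-51null, 38.4 and 23.1 in miR-54, 22.2 and 98.9 in miR-52to51 and 56.8 and 24.1 in miR52to53, against 11.9 and 0 in N2. It overlapped with N2 in miR-54+55, at 52.6 and 0 CPM, and in miR-54C, at 8.72 and 30.2. Of these, only miR-51null and miR-54 had 3 UMIs or more in both libraries, with 5 and 8 UMIs in miR-51null and 8 and 3 in miR-54, against 7 and 0 in N2. The 1 UMI in miR-52to51 replicate 1 and the 1 and 2 in miR52to53 are under the count read as a level. In miR52to57seed miR-77-5p had 0 and 2 UMIs, in miR-54+55 4 and 0, and in miR-54C 1 and 3.

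The levels of the members were then set beside those of other strands over the libraries, as rank correlations (Spearman's rho, n = 16). Libraries of a strain share a genotype, and all strands of a library share its depth and scaling, so that these values are a description only. miR-77-3p and miR-85-3p were most alike among the members (rho 0.73), followed by miR-70-3p with miR-85-3p (0.61) and with miR-77-3p (0.60). Within the 14 mutant libraries these 3 values were 0.71, 0.64 and 0.56. miR-78-3p had 0.25 to 0.41 with these strands over all libraries and 0.12 to 0.18 within mutants, and miR-230-3p had 0.10 to 0.26 and 0.05 to 0.27 with the other 4. Correlations with library depth lay between -0.40 for miR-78-3p and 0.34 for miR-230-3p over all libraries, with -0.31 for miR-70-3p. Within mutants they were -0.11 for miR-78-3p, 0.52 for miR-230-3p and 0.03 for miR-70-3p.

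The strands most like miR-77-3p in pattern were lin-4-5p (rho 0.94), miR-48-5p (0.91) and miR-235-3p (0.89). lin-4 and the let-7 family, to which miR-48 belongs, time the larval stages, and miR-235 acts in the arrest of newly hatched larvae without food. Within the mutant libraries the values were 0.95, 0.89 and 0.85. For miR-85-3p they were miR-238-3p (0.92), miR-237-5p (0.76) and miR-235-3p (0.76), and for miR-70-3p miR-71-5p (0.72), known for lifespan and stress resistance, miR-241-5p of the let-7 family (0.68) and miR-235-3p (0.65). For miR-78-3p the highest values were 0.72 with miR-61-5p, 0.60 with miR-59-3p and 0.56 with miR-87-3p, and for miR-230-3p they did not pass 0.53. The plot of rank correlations gives them for all members and lists.

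**Figure D3:**
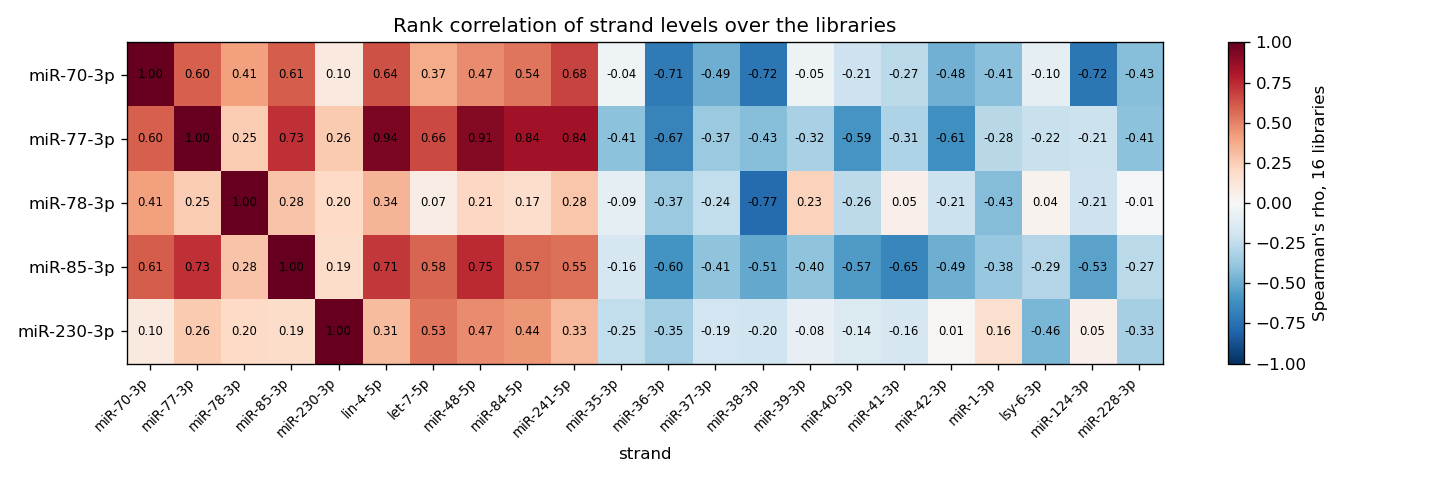
Spearman's rho over 16 libraries (colour and printed value) between the levels of the 5 strands (rows) and those of the same strands, 5 larval timing strands, 8 strands of the miR-35 family and 4 tissue strands (columns). miR-77-3p has 0.94 with lin-4-5p and 0.91 with miR-48-5p, whereas miR-78-3p has 0.34 and 0.21.

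As a mark of stages after the embryo, 5 strands that time larval development were summed, namely lin-4-5p, let-7-5p, miR-48-5p, miR-84-5p and miR-241-5p. The summed level of the list was 1558 and 1939 CPM at the lowest and highest library in miR-51null, 901.8 and 4321 in miR-54, 511.5 and 1592 in miR-54+55, and 610.5 and 1087 in miR-54C, against 730.6 and 834.7 in N2. It was 844.9 and 2540 CPM in miR-52to51, 1688 and 4427 in miR52to53, and 230.04 and 363.5 in miR52to57seed. The sum was thus above both N2 libraries in miR-51null, miR-54, miR-52to51 and miR52to53, and below both in miR52to57seed. In miR-52to51 the margin was small, 844.9 against 834.7 CPM. Of the 5 strands only lin-4-5p followed the sum in all these strains. let-7-5p overlapped with N2 in miR-54, miR-52to51 and miR52to53, miR-48-5p in miR-54, miR-84-5p in miR-52to51, and miR-241-5p in miR-51null and miR-52to51. Among all single strands 19.1% were above both in miR-51null, 23.5% in miR-54, 21% in miR-52to51 and 24.1% in miR52to53. In miR52to57seed 38.9% were below both. There lin-4-5p had 0 and 1 UMIs and miR-84-5p and miR-241-5p were at 0 in both libraries.

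Of these 5 strands, 1 was called higher in miR-54, where 3.7% of all strands were, lin-4-5p with a log2 fold change of 2.38, and 0 were called in the other 6 strains, where 0% to 3.7% of all strands were. There DESeq2 called 1 higher in miR-52to51 and 1 in miR52to53, and at an unadjusted p under 0.05 in edgeR 4 pairs were higher and 2 were lower. The median fold change of the list was 1.33 in miR-51null, 2.15 in miR-54, 0.72 in miR-54+55, -0.13 in miR-54C, 1.49 in miR-52to51, 2.19 in miR52to53 and -3.15 in miR52to57seed. The rho of the summed level was 0.94 with miR-77-3p, 0.74 with miR-85-3p, 0.52 with miR-70-3p, 0.41 with miR-230-3p and 0.26 with miR-78-3p. Within mutants these were 0.93, 0.69, 0.48, 0.43 and 0.12. Developmental stage and genotype cannot be told apart where a strain's embryos may have been older or younger at collection, and the part of stage in the members' levels was not tested. The plot of member levels against the sum shows the library values.

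**Figure D4:**
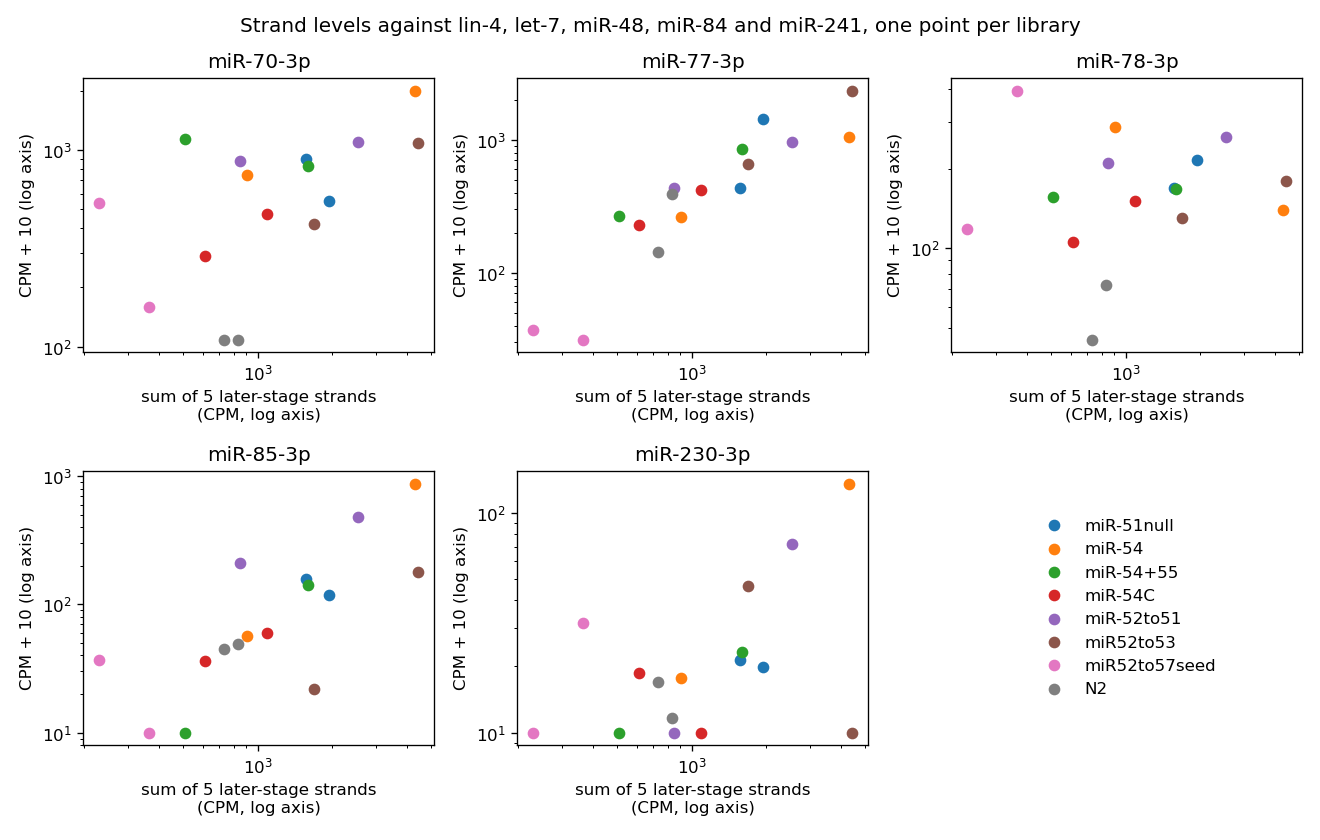
Level of each of the 5 strands (y axes, CPM plus 10, log scale) against the summed level of lin-4-5p, let-7-5p, miR-48-5p, miR-84-5p and miR-241-5p (x axes, CPM, log scale), with a point for each library coloured by strain. The points of miR-77-3p lie closest to an order by the sum (rho 0.94), and those of miR-78-3p farthest from one (rho 0.26).

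Strands of the early embryo and of single tissues were taken as further lists. Of the 8 strands of the miR-35 family, which act in the early embryo, 0 were called higher in any strain (0 also by DESeq2, and 1 pair at an unadjusted p under 0.05). Of these strands 1, miR-42-3p, was called lower in miR-52to51 and in miR52to53, where 13.6% and 8.64% of all strands were called in either direction. DESeq2 called 3 pairs of the list lower, and at an unadjusted p under 0.05 in edgeR 6 were lower. The median log2 fold change of these 8 lay between -0.52 and 0.08 in the 7 strains, and that of the tissue strands between -0.74 and -0.03. The summed level of the miR-35 family was below both N2 libraries in miR-54, miR-54C, miR-52to51 and miR52to53, above both in miR-54+55 (18.5% of all single strands were), and overlapped with N2 in miR-51null and miR52to57seed. Its rho was -0.29 with miR-70-3p, -0.52 with miR-77-3p, -0.25 with miR-78-3p, -0.58 with miR-85-3p and -0.21 with miR-230-3p. Of 5 tissue strands, 4 were tested (miR-1-3p of muscle, lsy-6-3p and miR-124-3p of sensory neurons, and miR-228-3p of glia). Of these 1, miR-228-3p, was called lower in miR-51null, where 13% of all strands were called in either direction. DESeq2 also called 1 tissue pair lower, and 2 were lower at an unadjusted p under 0.05 in edgeR. The summed level of the tissue list was below both N2 libraries in all 7 strains, with 10272 to 24519 CPM in mutants, against 25549 and 25642 in N2. Among all single strands 38.9% were below both in miR52to57seed. That share is not given for the other strains, so that nothing is read from the side of the miR-35 family sum or of the tissue sum. The rho of the tissue sum was -0.59 with miR-70-3p, -0.33 with miR-77-3p, -0.40 with miR-78-3p, -0.56 with miR-85-3p and 0.20 with miR-230-3p. The sum is carried by miR-1-3p and miR-124-3p, with 18198 and 7046 CPM in N2 replicate 1. None of the 4 tested strands was below both N2 libraries in all 7 strains. miR-1-3p overlapped with N2 in miR-51null, and miR-124-3p in miR-51null, miR-54C, miR52to53 and miR52to57seed. miR-228-3p overlapped in miR-54+55, miR-52to51 and miR52to53, and lsy-6-3p in miR-51null, miR-54+55, miR-54C and miR52to53. In miR52to57seed lsy-6-3p and miR-228-3p were above both N2 libraries. There lsy-6-3p was at 128.3 and 94.7 CPM, against 67.9 and 77.3 in N2, and miR-228-3p at 363.5 and 338.3 CPM, against 319 and 281 in N2. In RNA of whole embryos, more cells of a type and more of a strand per cell cannot be told apart, and the part of tissue make-up in the members' levels was not tested.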

How the data were processed

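The authors sequenced small RNAs with UMIs and assigned reads to miRNA strands with a Nextflow pipeline. The files they deposited hold, per library, the estimated count of reads and UMIs on each strand, divided where a read fits several strands, and the count of UMIs in full, all without normalization. The labels name WBcel235. Unlisted strands were taken as 0. The study normalized to spike-ins, and amounts per embryo are not analysed here.

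Divided UMIs were rounded and fitted in edgeR 4.0.16 (R 4.3.3): 16 libraries in 1 fit, strain as the only term, TMM over strands outside the family, at least 10 UMIs in at least 2 libraries, Benjamini-Hochberg threshold 0.05. The biological coefficient of variation was 25.3%. The fit was also run on simulated counts with the same spread for every strand, unlike the members here, and nothing is read from that run. SE is the fold change over the square root of F. The SD of a ratio to the N2 mean is propagated from the SD of the strain and that of N2. Intervals cover counting error only. The study calls the duplicates independent, without naming separate cultures. Named strands are the members, their 5p arms, miRNA genes within 10 kb, the 3 strands with the highest rho for each member, and the lists. Members and lists were chosen with earlier results of these data known. Alternatives were other scalings, reads, UMIs in full, filters, DESeq2 1.42.0, a replicate block, each strain alone with N2, and libraries left out. Python 3.11.15, numpy 2.4.6, pandas 2.3.3, scipy 1.17.1 and matplotlib 3.10.9 were used.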

Additional observations from a re-analysis of the deposited data

Results flagged for a closer look

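miR-77-3p was singled out because both miR52to57seed libraries lay below both N2 libraries, with a mean ratio of 0.0947, while both libraries of miR-51null, miR-52to51 and miR52to53 lay above. miR-85-3p was singled out for the same reason, with a mean ratio of 0.365 in miR52to57seed and both libraries of miR-51null, miR-54 and miR-52to51 above N2. The difference between strains was not tested for either strand, and the value of miR-85-3p rests on 2 UMIs, where a difference from N2 was not detectable at this depth.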

How the results depend on the processing

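Against 103 strand and strain pairs called over all 7 strains, leaving out each library in turn gave 67 to 113, with 67 without N2 replicate 1 and 72 without N2 replicate 2. Of 35 pairs of a member and a strain, 12 were called higher, and leaving out each library in turn gave 2 to 13, with the lowest counts of 2 without N2 replicate 1, 4 without N2 replicate 2 and 6 without miR52to53 replicate 2. The count was 20 with no filter on low counts and 7 with at least 50 UMIs, where 3 members were left in the fit. Pairs with both libraries above both N2 libraries numbered 22, and 22 to 25 with a library left out. The 22 include the pairs of miR-230-3p that rest on 1 UMI in a library. The replicate block gave 109 calls over all strands and 12 among the members. Over the 28 pairs of strains, deviations of same-numbered libraries correlated at -0.42 to 0.39 (median -0.03), and 7 of 28 passed 0.1, so that the numbers do not pair the libraries. Reads in place of UMIs gave 8 calls among the members, DESeq2 gave 14, and leaving out the libraries under 50000 UMIs gave 9. Of 872 fold changes of the members under alternatives, 14 moved by more than the spread between replicates, 7 of them where the strain was left with 0 UMIs of the strand, and 0 called values changed sign. Of the 26 alternatives, 16 leave out 1 library, mostly of a strain other than the one compared, so that most values could hardly move. The spread is that of the strain and N2 combined, from 2 libraries each, so that nothing is read from the small number that moved. Scaling by the sum of the other miRNAs moved the median of all strands by up to 0.23 (miR-52to51), and by median of ratios by up to 0.12 (miR-51null). The cause of these changes was not tested beyond what the settings remove. Depth limits miR-230-3p, miR-85-3p and the 5p arms most.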
